A study of Rattus norvegicus with 13 samples.

Results

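The genes described here are 34 enzymes and transporters that carry glucose carbon through the heart, from glucose entry through glycolysis, glycogen, lactate and the pyruvate dehydrogenase complex into the citric acid cycle. They were listed by symbol and grouped into 8 steps of the pathway, and the rule used no measured value, although earlier results of these data were known when the list was made. Each was read by its brightest probe set, the one with the highest mean log2 signal over all arrays among probe sets annotated to a single gene. A probe set is a group of short probes that together report 1 transcript. All 34 genes were found among the 14217 genes with a single-symbol probe set, and they account for 34 of the 31042 probe sets tested.

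Left ventricles of female Sprague Dawley rats in late pregnancy were hybridized to 13 Affymetrix rat genome arrays. The 5 control rats drank plain water, 4 rats received methionine at 9 g/L (Met-fed) and 4 received L-NAME, an inhibitor of nitric oxide synthases, at 1 g/L, in each case over days 1 to 20, with tissue taken on day 20 or 21. Methionine served to raise homocysteine and L-NAME to restrict nitric oxide, and all rats ate standard chow. The methods describe rats mated repeatedly and 4 control arrays where 5 were used here, and they do not describe the L-NAME arrays. The labels name a sample for each array without saying that each came from a separate rat, so the p-values measure the spread between arrays. No batch is given, and an effect of L-NAME cannot be told apart from any difference in how the 4 L-NAME samples were handled.

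Glucose enters the cardiomyocyte through GLUT1 and GLUT4, is phosphorylated by hexokinase and is either stored as glycogen or split by glycolysis to pyruvate. Pyruvate is exchanged with lactate by lactate dehydrogenase or enters the mitochondrion, where the pyruvate dehydrogenase complex turns it into acetyl-CoA, a step that pyruvate dehydrogenase kinases switch off. The adult heart draws most of its energy from fatty acids, and the citric acid cycle is the route that both fuels share.

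In Met-fed hearts none of the 34 genes passed an adjusted p of 0.05, and their log2 changes lay between -0.24 and 0.31. On the L-NAME arrays 23 of the 34 passed, 4 higher and 19 lower, where 28.7% of all probe sets were called higher and 17.0% lower, and 52.5% were lower among the 3104 brightest, which hold 28 of the genes. Signals for Slc2a1, Gpi, Pfkl and Tpi1, at glucose entry and in the upper part of glycolysis, were higher than in control, and those lower included the pyruvate dehydrogenase subunits Pdha1 and Pdhb, their kinase Pdk2, glycogen phosphorylase Pygm and most citric acid cycle enzymes. The changes ran from a 2.15-fold higher signal for Pfkl to a 1.87-fold lower signal for Pdk2. Many of the 19 lower calls rested on how the arrays were scaled. Of the 4 higher calls, those of Slc2a1, Gpi and Tpi1 were lost when the arrays were centred on their own medians. For 4 genes called lower, Pygm, Pdha1, Pdk2 and Cs, a dimmer probe set was called higher, as described with the values below.

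Groups were compared with limma on the log2 signal of all 13 arrays, with p-values adjusted over 31042 probe sets by the Benjamini-Hochberg method, and a gene was called at an adjusted p under 0.05. Errors of log2 changes are standard errors. Single genes were also compared by a 2-sided exact permutation test over arrays, whose smallest possible p is 0.00794 for 5 against 4 arrays and 0.0286 for 4 against 4. Genes given with tests were mostly picked by their limma p on the same arrays, so this test gives no separate support. All log2 values are signals of 1 probe set, and levels of different genes are not compared.

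The arrays themselves differed between groups. All had been scaled to 1 common mean, yet the median signal over all probe sets was 25.7 to 27.2 on control, 25.8 to 29.2 on Met-fed and 34.2 to 36.9 on L-NAME arrays, and the median of the 3104 brightest probe sets, on the log2 scale, was 9.94 ± 0.01 in control, 9.92 ± 0.04 in Met-fed and 9.78 ± 0.02 in L-NAME (SD over 5, 4 and 4 arrays). The log2 difference between the 3′ and the 5′ probe sets of the beta-actin control, a measure of RNA quality and labelling, was 3.47 ± 0.14 in control, 3.53 ± 0.17 in Met-fed and 2.48 ± 0.16 in L-NAME (SD). Of 7 measured markers of ventricular cardiomyocytes, all were well above the bacterial control probe sets. The log2 of their summed signal was 14.6 to 14.8 in control, 14.3 to 14.8 in Met-fed and 13.97 to 14.2 in L-NAME hearts. All 7 were called lower in L-NAME, with a median log2 change of -0.63, or -0.11 after quantile normalization. Endothelial markers were called lower for 4 of 5, and the log2 of their summed signal was 12.3 to 12.6 in control and 11.9 to 12.1 in L-NAME. Leukocyte markers were lower for 5 of 6 and higher for 1. After quantile normalization the median log2 change was -0.17 for endothelial and -0.20 for leukocyte markers. None of these markers was called in Met-fed hearts. Smooth muscle markers were higher in L-NAME for 2 of 4 and lower for 1. The log2 of their summed signal was 7.96 to 9.13 in control and 8.49 to 10.06 in L-NAME. Over all probe sets 28.7% were called higher and 17.0% lower in L-NAME, and among the 3104 brightest 16.8% and 52.5%. Fewer cells of a type and less RNA per cell cannot be told apart in whole tissue, and the part of these array and marker differences in the results that follow was not tested.

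**Figure D1:**
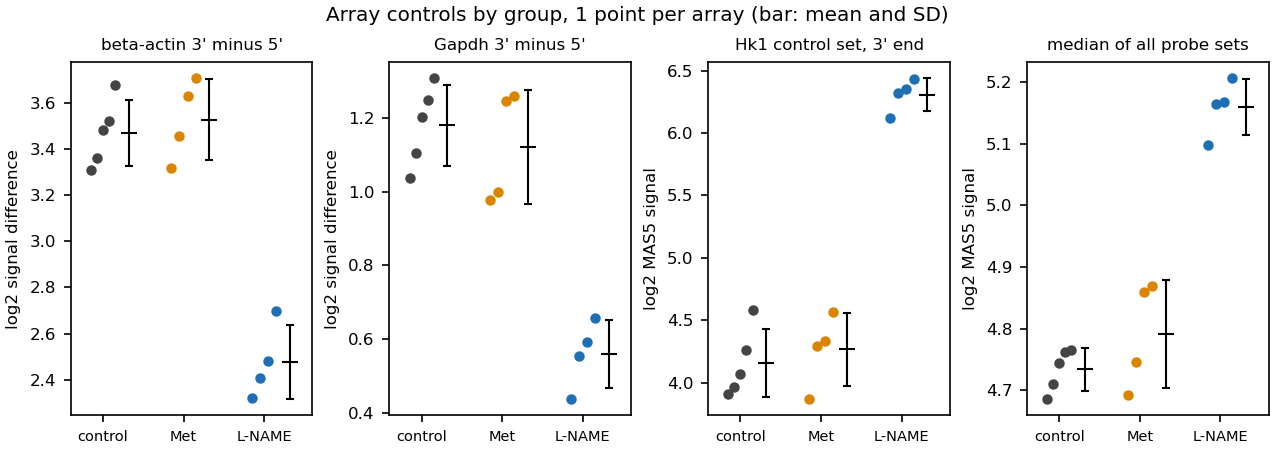
Control measures of the 13 arrays, 1 point per array, with bars for each group's mean and SD: the log2 difference of 3′ and 5′ probe sets for beta-actin and Gapdh, the log2 signal of the control probe set at the 3′ end of the Hk1 transcript, and the log2 median signal of all probe sets. In all 4 panels the L-NAME arrays do not overlap with the control or Met-fed arrays, with Gapdh differences of 0.44 to 0.66 against 1.04 to 1.31 in control.

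The share of probe sets called differed with brightness, so each count is set beside its background. Among the 3104 brightest probe sets, 16.8% were called higher and 52.5% lower in L-NAME against control. Of the 28 genes read by one of them, 2 were higher and 19 lower, with a median log2 change of -0.42 against -0.27 for the 3104. Over all 34 genes the median was -0.38 against 0.22 for all probe sets, so much of the distance from the whole array is shared with other bright probe sets.

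After quantile normalization, which gives every array the same distribution, 22.0% of all probe sets were called higher and 21.9% lower, and among the 3104 brightest 29.4% and 36.6%. Of the 34 genes, 9 were then higher and 7 lower, with a median of -0.04. The same genes called under both scalings in the same direction were 4 higher, Slc2a1, Gpi, Pfkl and Tpi1, and 6 lower, Pygm, Pdha1, Pdhb, Pdk2, Idh3b and Ogdh. When the arrays were centred on their own medians instead, the same 0.43 was taken from every log2 change between L-NAME and control. Then 1 of the 34, Pfkl, was called higher and 25 lower, against 29.7% of all probe sets lower and 45.7% called in either direction. Of the 3104 brightest, which hold 28 of the genes, 52.5% were already lower in the deposited scaling. Their share under this centring is not given, so the 25 cannot be set beside it. On their brightest probe sets the 6 genes called lower under both scalings stayed called lower there, with log2 changes from -1.33 for Pdk2 to -1.06 for Ogdh. Dimmer probe sets of Pygm, Pdha1 and Pdk2 were called higher in the deposited scaling and after quantile normalization.

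**Figure D2:**
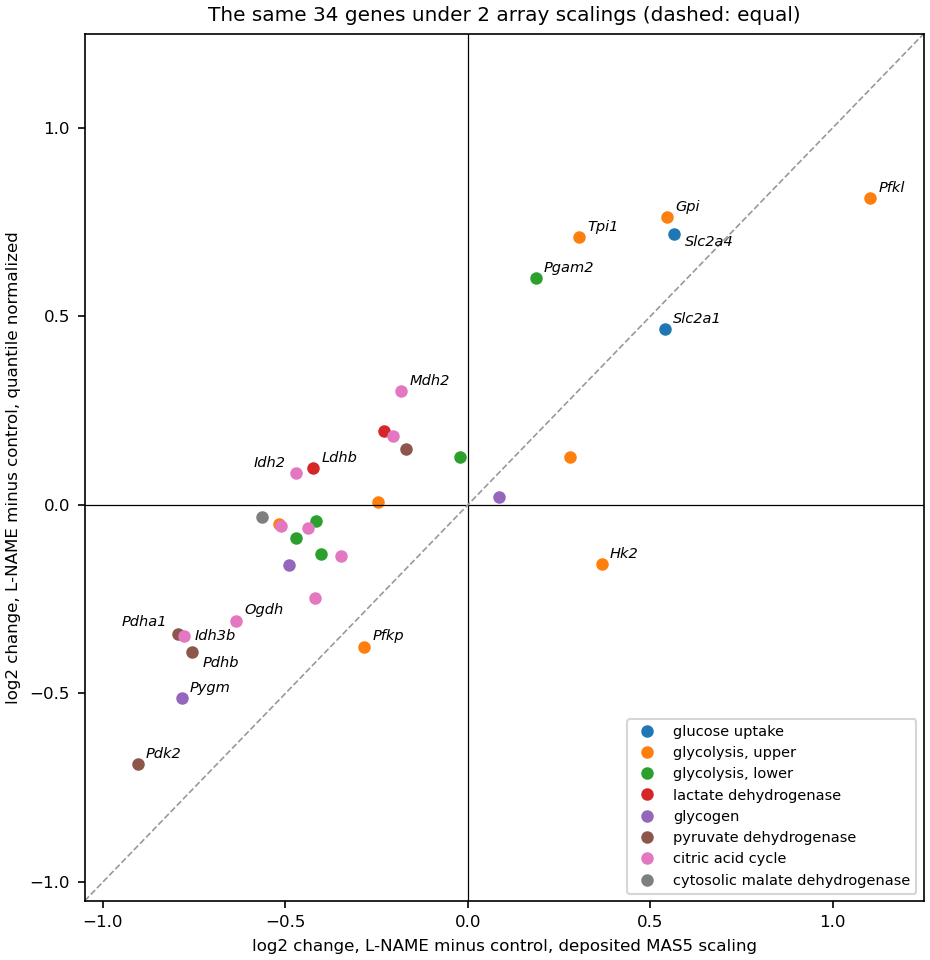
Log2 change of the 34 genes between L-NAME and control under the deposited MAS5 scaling (horizontal axis) and after quantile normalization (vertical axis), coloured by pathway step, with a dashed line where both are equal. Most points in the lower left lie above the dashed line, and Ldhb and Idh2, at -0.42 and -0.47 in the deposited scaling, move to 0.10 and 0.09.

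Some genes called under both the deposited and the quantile scaling have a single probe set, though for Slc2a1, Gpi and Tpi1 the call was lost under median centring. The promoters of the pairs of these genes with the largest changes in each direction, Pfkl and Gpi (higher) and Idh3b and Pdhb (lower), are shown as the 250 bases before the transcription start, from RefSeq on GRCr8, so that the upstream sequence of genes moving in opposite directions can be set side by side. Capitals mark matches, on either strand, to the hypoxia response element cores ACGTG and GCGTG, to the E-box CACGTG, which contains ACGTG, and to the estrogen-related receptor half-site AAGGTCA.
Pfkl, chr20:10663715-10663964, plus strand: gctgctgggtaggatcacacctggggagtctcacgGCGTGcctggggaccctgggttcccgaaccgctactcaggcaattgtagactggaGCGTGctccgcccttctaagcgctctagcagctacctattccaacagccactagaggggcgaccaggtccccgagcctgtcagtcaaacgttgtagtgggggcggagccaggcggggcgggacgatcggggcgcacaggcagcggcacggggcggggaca
Gpi, chr1:95993262-95993511, minus strand: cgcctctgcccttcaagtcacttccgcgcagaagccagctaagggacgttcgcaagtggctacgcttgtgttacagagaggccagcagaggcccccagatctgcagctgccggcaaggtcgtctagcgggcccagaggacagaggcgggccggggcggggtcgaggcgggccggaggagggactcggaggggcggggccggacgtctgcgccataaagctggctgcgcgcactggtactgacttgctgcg
Idh3b, chr3:137939991-137940240, minus strand: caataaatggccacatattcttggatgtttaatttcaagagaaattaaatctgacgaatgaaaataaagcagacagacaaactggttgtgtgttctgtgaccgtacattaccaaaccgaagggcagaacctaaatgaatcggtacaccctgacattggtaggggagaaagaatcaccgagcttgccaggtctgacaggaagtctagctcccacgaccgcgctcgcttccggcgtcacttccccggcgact
Pdhb, chr15:19182539-19182788, plus strand: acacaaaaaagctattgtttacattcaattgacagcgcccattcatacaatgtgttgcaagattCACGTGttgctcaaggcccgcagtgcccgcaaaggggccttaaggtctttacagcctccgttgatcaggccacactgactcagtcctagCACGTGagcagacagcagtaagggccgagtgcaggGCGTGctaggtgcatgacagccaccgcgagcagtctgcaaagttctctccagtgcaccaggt

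Pfkl held GCGTG at 2 places and Pdhb held the E-box at 2 places and GCGTG at 1, while the windows of Gpi and Idh3b held none of the 4. Windows were found for 31 of the 34 genes, all but Slc2a4, Pgk1 and Idh3a. ACGTG was present for 11 of the 31 (35.5%, against 18.1% of 27457 genes), GCGTG for 16 (51.6% against 28.4%) and the E-box for 4 (12.9% against 6.2%), namely Ldha, Ogdh, Pdhb and Pdk2. AAGGTCA was in none of the 31, against 4.2% of all genes. The windows were not matched for base composition, and their median GC content was 60.0% for these genes and 51.2% for all. These matches describe letters only.

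**Figure D3:**
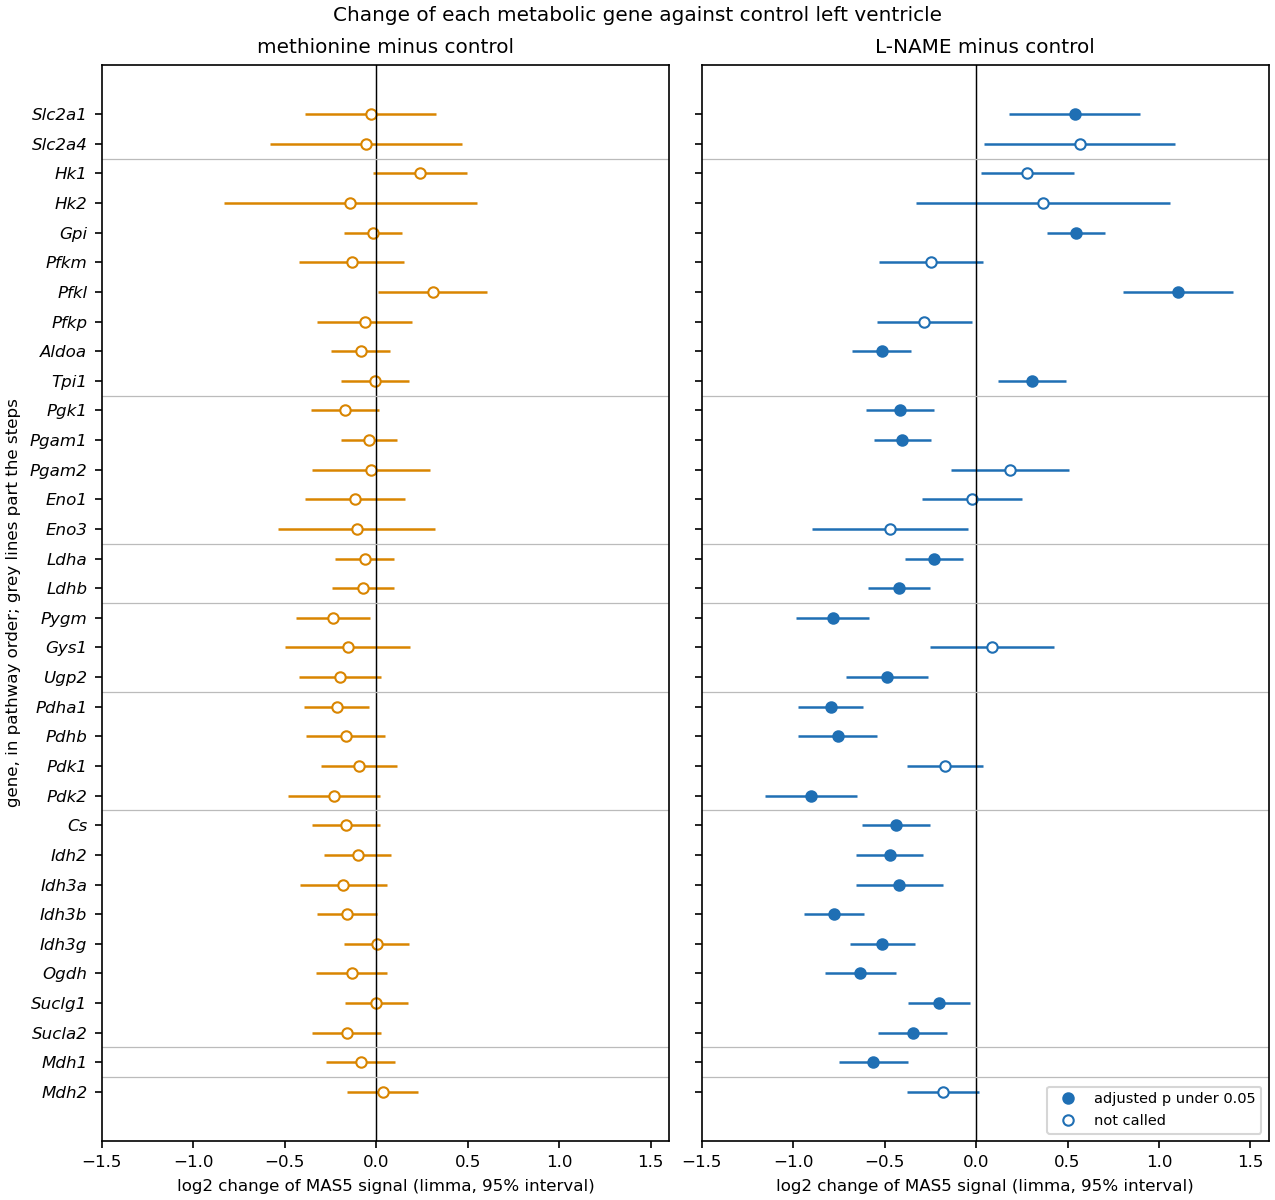
Log2 change of each of the 34 genes in pathway order for methionine minus control (left) and L-NAME minus control (right), with 95% confidence intervals from limma, where filled points passed an adjusted p of 0.05 and open points did not. In the left panel every point is open and lies between -0.24 and 0.31, and in the right panel the filled points lie above 0 only in the first steps, for Slc2a1, Gpi, Pfkl and Tpi1.

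At glucose entry, Slc2a1, which encodes the basal transporter GLUT1, had log2 signals of 8.05, 7.97, 8.73, 8.13 and 7.98 in control, 7.98, 7.91, 8.14 and 8.54 in Met-fed and 8.57, 8.78, 8.45 and 9.05 in L-NAME hearts. Control replicate 3 stood above the other control arrays and within the L-NAME range, so that the groups overlapped. The change on L-NAME was 0.54 ± 0.17 (adjusted p = 0.0150 by limma), or 0.47 ± 0.17 after quantile normalization (adjusted p = 0.0331). Without L-NAME replicate 4 it was 0.43 and was not called (adjusted p = 0.0630 by limma), and centred on array medians it was 0.12 and not called (adjusted p = 0.613 by limma).

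Slc2a4 encodes GLUT4, the transporter that insulin moves to the cell surface. Its signal was 9.78, 8.97, 9.52, 9.78 and 9.16 in control and 10.20, 9.88, 10.12 and 9.85 in L-NAME, and every L-NAME array was above every control array. The change of 0.57 ± 0.25 did not pass the deposited scaling (adjusted p = 0.0726 by limma) and passed after quantile normalization, at 0.72 ± 0.24 (adjusted p = 0.0229 by limma). Its second probe set, on average dimmer, was called higher by 1.42. Under array median centring, which takes 0.43 from every change, the brightest probe set was not called. Met-fed arrays spread from 8.55 to 10.12 and overlapped with both other groups.

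In upper glycolysis the hexokinases did not pass. Hk1, the hexokinase of most tissues, changed by 0.28 ± 0.12 in L-NAME (adjusted p = 0.0695 by limma) and Hk2, the insulin-responsive form of muscle, by 0.37 ± 0.33 (adjusted p = 0.394), from a signal of 2.67 to 4.27 over the control and L-NAME arrays, near the dim end. The array's own hexokinase control, annotated to Hk1, read 4.16 ± 0.27 (control) and 6.31 ± 0.13 (L-NAME) at its 3′ end, and 2.11 ± 1.08 and 4.46 ± 0.24 at its 5′ end (SD over 5 and 4 arrays). Probe sets annotated to Hk1 thus differed between L-NAME and control by very unequal amounts.

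Gpi encodes glucose-6-phosphate isomerase, which converts glucose-6-phosphate to fructose-6-phosphate. Its log2 signal was 9.71, 9.78, 9.64, 9.78 and 9.56 in control, 9.53, 9.69, 9.76 and 9.72 in Met-fed and 10.19, 10.21, 10.37 and 10.19 in L-NAME hearts. The L-NAME arrays lay above all others, and those apart from replicate 3 were almost equal. The change was 0.55 ± 0.07, a 1.46-fold higher signal (adjusted p = 1.62e-05 by limma, exact permutation p = 0.00794), and 0.76 ± 0.06 after quantile normalization. Centred on array medians it was 0.12 and not called (adjusted p = 0.306 by limma).

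Phosphofructokinase commits sugar to glycolysis, through 3 subunit genes. Pfkp, the platelet subunit, was not called (-0.28 ± 0.12, adjusted p = 0.0697 by limma). Pfkl, named for liver, had signals of 5.43, 5.44, 5.64, 5.74 and 5.36 in control, 5.72, 6.07, 5.76 and 5.77 in Met-fed and 6.68, 6.38, 6.78 and 6.65 in L-NAME. All L-NAME arrays were above all others. The change of 1.10 ± 0.14 (2.15-fold, adjusted p = 9.00e-06 by limma, exact permutation p = 0.00794) was 0.81 ± 0.15 after quantile normalization and stayed called after median centring.

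Pfkm, the muscle subunit, had signals of 10.47, 10.28, 10.60, 10.44 and 10.47 in control and 10.26, 10.16, 10.34 and 10.06 in L-NAME. The groups overlapped at 10.28 and 10.34, and the change of -0.25 ± 0.14 did not pass (adjusted p = 0.154 by limma). A second Pfkm probe set went the other way, with a change of 2.32 ± 0.20 (adjusted p = 1.65e-07 by limma), and the remaining one changed by -0.44 ± 0.33 (adjusted p = 0.294 by limma). On each array the difference Pfkl minus Pfkm, which array scaling by a factor leaves untouched, was -5.11 to -4.70 in control and -3.77 to -3.41 in L-NAME. The change was 1.35, or 0.56 when all probe sets of a gene were averaged. It was 0.80 after quantile normalization, which is not scaling by a factor, and 0.87 with an offset of 50.

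Aldoa, the muscle aldolase that splits fructose-1,6-bisphosphate, had signals of 11.53, 11.54, 11.47, 11.61 and 11.54 in control and 10.94, 11.01, 11.13 and 11.02 in L-NAME. The ranges were apart, and the change was -0.52 ± 0.08 (adjusted p = 3.44e-05 by limma). After quantile normalization the change was -0.05 ± 0.04 and was not called (adjusted p = 0.361 by limma).

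Tpi1, triosephosphate isomerase, interconverts the products of aldolase. Its signals were 10.64, 10.60, 10.64, 10.73 and 10.71 in control, 10.37, 10.84, 10.81 and 10.60 in Met-fed and 10.94, 10.89, 11.12 and 10.93 in L-NAME, and the L-NAME arrays were the highest. The change of 0.31 ± 0.09 (adjusted p = 0.00898 by limma) grew to 0.71 ± 0.06 after quantile normalization and turned to -0.12 after median centring, where it was not called. Aldoa and Tpi1 therefore moved apart on the same arrays, by -0.52 and 0.31 in the deposited scaling.

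Gapdh, the next enzyme, was read only by the array's control probe sets. Its 3′ probe set had a mean of 11.83 ± 0.09 on the control and 11.48 ± 0.13 on the L-NAME arrays, while its 5′ probe set had 10.65 ± 0.19 and 10.92 ± 0.09 (SD over 5 and 4 arrays). On L-NAME arrays the mean was lower at the 3′ end of this transcript and higher at the 5′ end. The log2 difference between the ends, 1.18 ± 0.11 for control and 0.56 ± 0.09 for L-NAME arrays (SD), did not overlap between the groups.

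In lower glycolysis 2 of 5 genes, Pgk1 and Pgam1, were called lower in L-NAME and none higher, where 52.5% of the 3104 brightest probe sets were lower. Pgk1 was not called after quantile normalization (-0.04, adjusted p = 0.668 by limma). Its second probe set changed by 0.07 in the deposited scaling and was called higher after quantile normalization, at 0.42 (adjusted p = 0.000105 by limma). The third, with a mean log2 signal of 2.03, was called lower under both scalings (-1.51 and -2.02). Pgam1, the broadly expressed phosphoglycerate mutase, had signals of 10.71, 10.55, 10.68, 10.64 and 10.78 in control and 10.21, 10.28, 10.33 and 10.25 in L-NAME. The change of -0.40 ± 0.07 (adjusted p = 0.000239 by limma) became -0.13 ± 0.06 after quantile normalization (adjusted p = 0.0760). Pgam2, the muscle mutase, had signals of 11.11, 10.89, 10.60, 10.74 and 10.63 in control and 10.90, 10.90, 11.14 and 10.98 in L-NAME, which overlapped. Its change was 0.19 ± 0.15 (adjusted p = 0.351 by limma) and was called higher after quantile normalization, at 0.60 ± 0.12 (adjusted p = 0.000696). Pgam1 minus Pgam2 was -0.41 to 0.15 in control and -0.80 to -0.61 in L-NAME, so every L-NAME array had a lower difference than every control array. For Eno1 and Eno3, the enolases of most tissues and of muscle, the same difference overlapped between the groups.

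Lactate dehydrogenase joins A and B subunits, the A form being typical of skeletal muscle and the B form of heart. Ldhb had signals of 11.71, 11.78, 11.76, 11.76 and 11.79 in control, 11.52, 11.83, 11.84 and 11.57 in Met-fed and 11.16, 11.39, 11.49 and 11.31 in L-NAME. The change on L-NAME was -0.42 ± 0.08 (adjusted p = 0.000336 by limma), and it became 0.10 ± 0.04 after quantile normalization (adjusted p = 0.0874). Ldha had 11.23, 11.16, 11.14, 11.20 and 11.14 in control and 10.78, 10.94, 11.11 and 10.94 in L-NAME, which did not overlap. Its change was -0.23 ± 0.08 (adjusted p = 0.0193 by limma), was not called without L-NAME replicate 1 (-0.18, adjusted p = 0.0796) and was called higher after quantile normalization, at 0.20 ± 0.05 (adjusted p = 0.00285). No direction can therefore be given for either gene. Ldha minus Ldhb was -0.65 to -0.49 in control, -0.64 to -0.49 in Met-fed and -0.45 to -0.38 in L-NAME, a shift of 0.19 with no overlap, and of 0.10 after quantile normalization.

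In glycogen metabolism, Pygm, the muscle phosphorylase that releases glucose-1-phosphate from glycogen, had log2 signals of 10.73, 10.98, 10.97, 10.995 and 10.94 in control, 10.42, 10.90, 10.74 and 10.69 in Met-fed and 10.04, 10.05, 10.34 and 10.12 in L-NAME. All L-NAME arrays were below all others. The change was -0.78 ± 0.10, a 1.72-fold lower signal (adjusted p = 4.90e-06 by limma, exact permutation p = 0.00794), and -0.51 ± 0.07 after quantile normalization. Both other Pygm probe sets were called higher, by 2.02 ± 0.11 (adjusted p = 2.23e-09 by limma) and 2.33 ± 0.17 (adjusted p = 4.41e-08 by limma). The signal of the brighter of these relative to the first was -3.87 to -3.52 in control and -0.88 to -0.82 in L-NAME on the log2 scale. The direction of Pygm thus depended on the probe set, and none can be given. Of the other glycogen genes, Ugp2, which makes UDP-glucose, was called lower in the deposited scaling but not after quantile normalization, and Gys1, muscle glycogen synthase, was not called.

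At the pyruvate dehydrogenase step 3 of 4 genes were called on their brightest probe sets, all lower, and they were among the 6 lower under both scalings. For Pdha1 and Pdk2 the second probe set was called higher under both scalings, so no direction can be given for these genes. Of the 3104 brightest probe sets 52.5% were lower in the deposited scaling and 36.6% after quantile normalization. Pdha1, the E1 alpha subunit, had 11.52, 11.69, 11.57, 11.69 and 11.74 in control, 11.18, 11.61, 11.55 and 11.37 in Met-fed and 10.79, 10.96, 10.88 and 10.76 in L-NAME. No L-NAME array reached the lowest of the others. The change was -0.80 ± 0.08, a 1.74-fold lower signal (adjusted p = 1.27e-06 by limma), and -0.34 ± 0.06 after quantile normalization, but its second probe set was called higher by 1.16 ± 0.13 (adjusted p = 2.69e-06 by limma).

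Pdhb, the E1 beta subunit with which Pdha1 forms the E1 enzyme, has 1 probe set. Its signals were 11.18, 11.29, 11.24, 11.34 and 11.38 in control, 10.78, 11.36, 11.34 and 11.00 in Met-fed and 10.50, 10.60, 10.60 and 10.42 in L-NAME, again with every L-NAME array lowest. The change of -0.76 ± 0.10 (1.69-fold lower, adjusted p = 1.54e-05 by limma, exact permutation p = 0.00794) was -0.39 ± 0.07 after quantile normalization (adjusted p = 0.000220).

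Pdk2, a kinase that inactivates E1 and is abundant in heart, had 10.43, 10.69, 10.81, 10.90 and 10.92 in control, 10.20, 10.74, 10.75 and 10.38 in Met-fed and 9.95, 9.81, 9.85 and 9.78 in L-NAME. The L-NAME arrays were the lowest, and the change of -0.90 ± 0.12 (adjusted p = 1.14e-05 by limma) was -0.69 ± 0.10 after quantile normalization. Its second probe set was called higher by 1.93 ± 0.23 (adjusted p = 3.62e-06 by limma). Pdk1, the related kinase known as a target of hypoxia-inducible factor, changed by -0.17 ± 0.10 (adjusted p = 0.177 by limma). Its second probe set was called lower in the deposited scaling (-0.285, adjusted p = 0.0283 by limma) and not after quantile normalization (-0.148, adjusted p = 0.208). Pdk1 minus Pdk2 was -0.41 to 0.07 in control and 0.42 to 0.81 in L-NAME, a change of 0.74 that became -0.74 with the mean of all probe sets of each gene, so its direction was not settled.

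**Figure D4:**
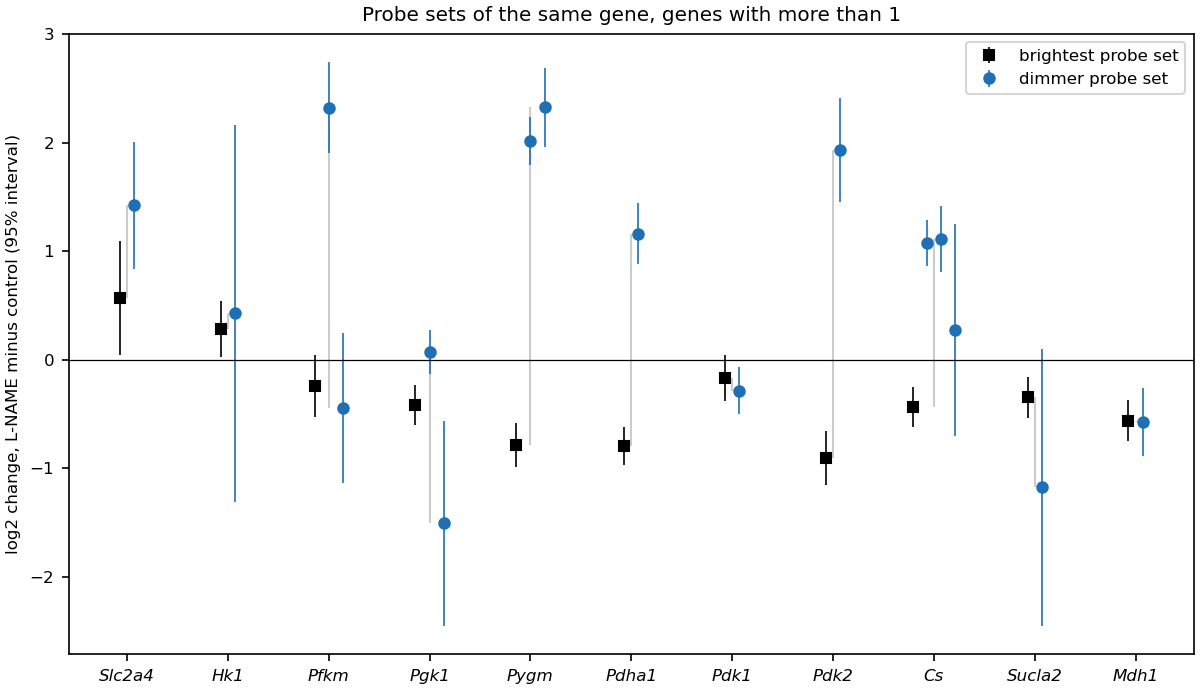
Log2 change between L-NAME and control, with 95% confidence intervals, for every probe set of the 11 genes that have more than 1, with black squares for the brightest probe set and blue circles for the others. For Pygm, Pdha1, Pdk2 and Cs the brightest lies below 0 while 1 or 2 others lie above 1, and for Mdh1 both lie near -0.57.

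Across the 11 genes with several probe sets, 16 dimmer probe sets were measured, of which 8 were called higher and 3 lower in L-NAME, with a median of 0.75, against 28.7% higher, 17.0% lower and a median of 0.22 over all probe sets. For 4 genes, Pygm, Pdha1, Pdk2 and Cs, the brightest was called lower and a dimmer one higher. Citrate synthase, Cs, named here after its values were seen, changed by -0.44 ± 0.09 on its brightest probe set (adjusted p = 0.000593 by limma) and by 1.08 ± 0.10 and 1.11 ± 0.15 on the next 2. The positions of the probe sets along the transcripts were not used here, and the part of the 3′ to 5′ difference of the control transcripts in these disagreements was not tested.

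Of 9 genes of the citric acid cycle, 8 were called lower in the deposited scaling and none higher, where 52.5% of the 3104 brightest probe sets were lower. After quantile normalization 2 were lower, Idh3b and Ogdh, and 2 were higher, Mdh2 and the succinyl-CoA ligase subunit Suclg1, both named after their values were seen. Idh3b, the beta subunit of the NAD-dependent isocitrate dehydrogenase, a regulated enzyme of the cycle, had signals of 11.53, 11.56, 11.54, 11.61 and 11.61 in control, 11.16, 11.56, 11.59 and 11.34 in Met-fed and 10.75, 10.79, 10.85 and 10.79 in L-NAME. The L-NAME arrays lay below all others in a narrow range. The change was -0.78 ± 0.08, a 1.72-fold lower signal (adjusted p = 6.72e-07 by limma, exact permutation p = 0.00794), and -0.35 ± 0.05 after quantile normalization (adjusted p = 1.26e-05 by limma).

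Its partner subunit Idh3g had 11.45, 11.50, 11.42, 11.44 and 11.51 in control and 10.86, 10.97, 11.03 and 10.94 in L-NAME, with no overlap. The change of -0.51 ± 0.08 (adjusted p = 9.30e-05 by limma) was -0.06 ± 0.05 after quantile normalization and no longer called. Idh2, the NADP-dependent enzyme of mitochondria, changed by -0.47 ± 0.09 (adjusted p = 0.000275 by limma) and by 0.09 ± 0.06 after quantile normalization (adjusted p = 0.238). Idh3a, the alpha subunit, was called lower in the deposited scaling (-0.42) and not after quantile normalization (-0.25, adjusted p = 0.0569 by limma).

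Ogdh, the E1 component of the oxoglutarate dehydrogenase complex, a relative of pyruvate dehydrogenase, had 11.03, 11.12, 11.07, 11.09 and 11.11 in control, 10.64, 11.22, 11.003 and 10.94 in Met-fed and 10.44, 10.52, 10.54 and 10.30 in L-NAME. All L-NAME arrays were lowest. The change was -0.63 ± 0.09 (1.55-fold lower, adjusted p = 2.95e-05 by limma, exact permutation p = 0.00794), and -0.31 ± 0.07 after quantile normalization (adjusted p = 0.00138).

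Malate dehydrogenase closes the cycle in mitochondria as Mdh2 and carries reducing equivalents across their membrane from the cytosol as Mdh1. Mdh1 had 11.85, 11.87, 11.79, 11.86 and 11.90 in control, 11.49, 11.98, 11.95 and 11.67 in Met-fed and 11.18, 11.28, 11.45 and 11.26 in L-NAME, with the L-NAME arrays lowest. Its change was -0.56 ± 0.09 (adjusted p = 6.99e-05 by limma) and its second probe set moved alike, by -0.57 ± 0.15 (adjusted p = 0.00421 by limma), while quantile normalization left -0.03 ± 0.05 (adjusted p = 0.630). Mdh2 was not called (-0.18 ± 0.09, adjusted p = 0.120 by limma).

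**Figure D5:**
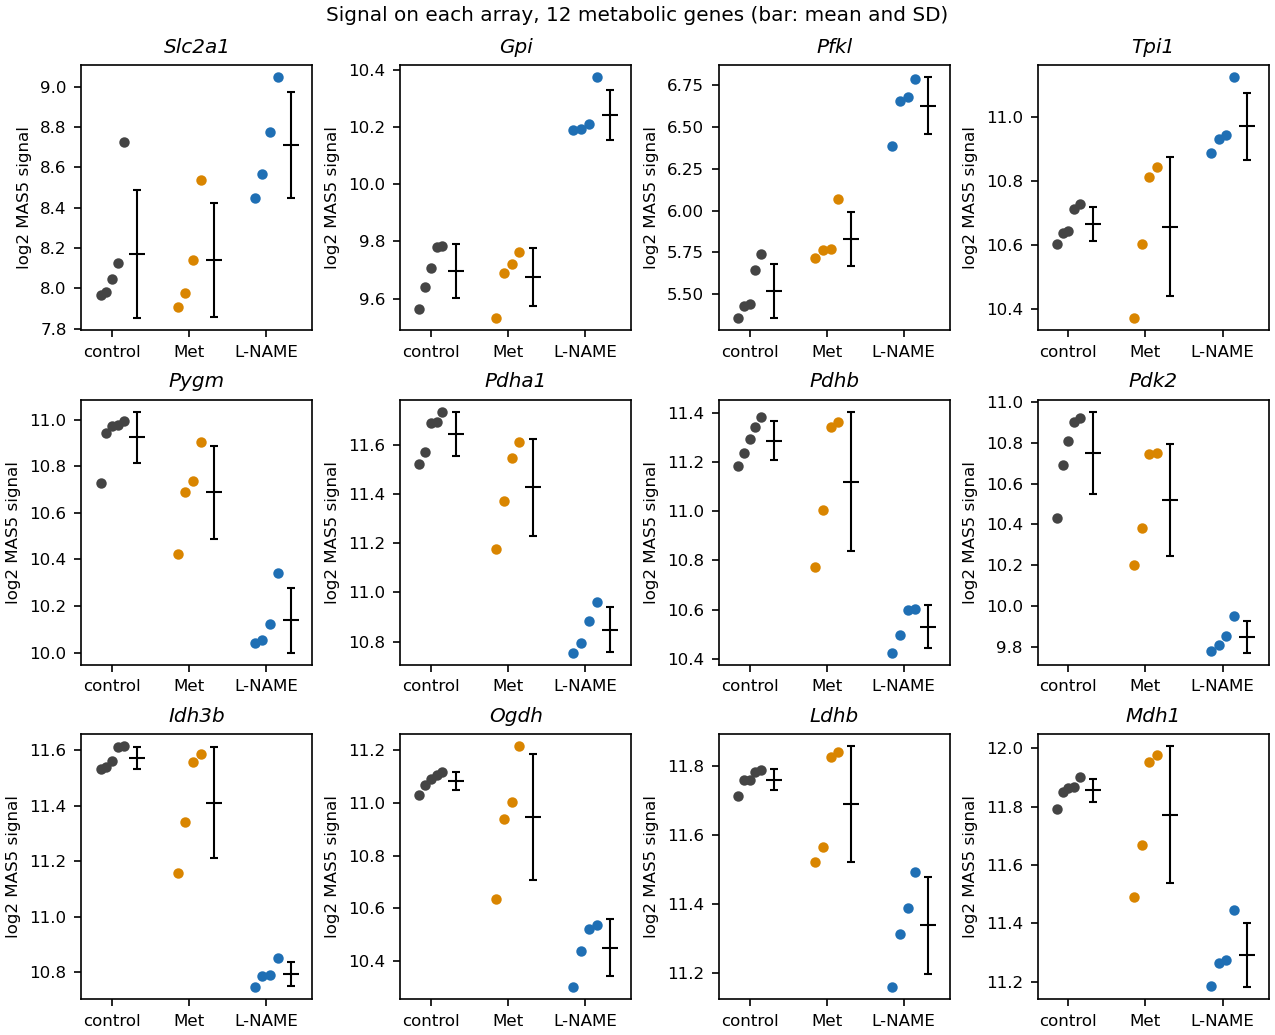
Log2 MAS5 signal on every array for 12 of the genes, 1 point per array, with bars for each group's mean and SD, each panel with its own axis. The top row shows the 4 genes called higher in L-NAME, the other rows 8 called lower, and in many panels the 2 lowest Met-fed points, which come from replicates 1 and 4, stand below the control points.

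Genes of the same pathway beyond the 34 were taken from a list of 82, of which 70 were measured. In L-NAME against control 14 were called higher and 26 lower, with a median of -0.17, and after quantile normalization 18 and 20. The shares over all probe sets were 28.7% and 17.0%, and 22.0% and 21.9% after quantile normalization. Among the 3104 brightest, which hold part of this list, they were 16.8% and 52.5%, and 29.4% and 36.6% after quantile normalization. The 3 with the smallest p were Gaa, the lysosomal glucosidase that degrades glycogen (-1.22), Me3, a mitochondrial malic enzyme (-1.01), and Epas1, which encodes the hypoxia-inducible factor HIF-2 alpha (-1.005). Picked for that p, all 3 were lower on every L-NAME array than on any control array, which gives no separate support. In methionine against control none of the 70 was called. At an unadjusted p under 0.05 by limma 2 were higher and 8 lower, against 5.72% and 4.97% of all probe sets. In L-NAME against Met-fed 14 were called higher and 19 lower. The shares there were 25.4% and 14.9% of all probe sets, and 14.2% and 48.2% of the 3104 brightest.

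Methionine feeding was compared with control in the same way. None of 31042 probe sets passed (0%), and none of the 34 genes did, while at an unadjusted p under 0.05 limma gave 5.72% of all probe sets higher and 4.97% lower. Of the 34 genes, 1 was higher at that level, Pfkl, and 2 were lower, Pdha1 and Pygm. For 32 of the 34, the 95% interval of the change lay within 1.5-fold in both directions, so larger changes lie outside those intervals. The same held for 2962 of the 3104 brightest probe sets, which hold 28 of the genes, and for 11413 of all 31042.

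The 8 genes with the smallest p in the methionine comparison were Pdha1, Pygm, Pfkl, Idh3b, Hk1, Pgk1, Pdk2 and Cs. Pdha1 changed by -0.22 ± 0.08 (adjusted p = 0.387 by limma) and Pygm by -0.24 ± 0.10 (adjusted p = 0.399). Pfkl changed by 0.31 ± 0.14 (adjusted p = 0.454) and Hk1 by 0.24 ± 0.12 (adjusted p = 0.501). Pgk1, which makes ATP in lower glycolysis, had signals of 10.96, 10.96, 11.11, 11.19 and 11.11 in control and 10.58, 11.02, 10.98 and 10.999 in Met-fed, where replicate 1 lay apart. For Pgk1, Pdk2, Cs and Idh3b the changes were between -0.23 and -0.16, and the groups overlapped for all 8.

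Within the Met-fed group the 34 genes did not behave alike from array to array. Replicate 1 was below every control array for 28 of the 34 genes and replicate 4 for 21, whereas replicates 2 and 3 were each below for 1 and above for 10 and 11. The share of all probe sets below every control array was not counted, so how particular these counts are cannot be told. The median difference of the 34 genes from the control mean was -0.40 in replicate 1 and -0.16 in replicate 4, against -0.09 and -0.05 for the 3104 brightest probe sets, and 0.05 and 0.07 in replicates 2 and 3. These 2 arrays also had the highest median signals of the group. With replicates 1 and 4 left out, an alternative chosen after the data were seen, 25 of the 34 genes were higher than control and 9 lower, and 7 were higher at an unadjusted p under 0.05 with none called, against 3.52% of all probe sets. Those 2 arrays were picked for their low values, so the direction that remains was fixed by the choice and is no test. With all 4 arrays 29 of 34 genes were lower, with a median of -0.10.

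L-NAME and Met-fed hearts were also set against each other. Over all probe sets 25.4% were called higher and 14.9% lower in L-NAME, and among the 34 genes 4 were higher, again Slc2a1, Gpi, Pfkl and Tpi1, and 15 lower. Among the 3104 brightest probe sets 14.2% were higher and 48.2% lower. The 6 with the smallest p were Idh3b (-0.62 ± 0.08, adjusted p = 1.94e-05 by limma), Gpi (0.57 ± 0.08), Pdha1 (-0.58 ± 0.09), Idh3g (-0.52 ± 0.09), Pygm (-0.55 ± 0.10) and Pdhb (-0.59 ± 0.11). The other probe sets of Pygm (1.84 and 2.56) and that of Pdha1 (1.13) were called higher, so no direction can be given for these genes. On their brightest probe sets all 6 were apart on every array, and the exact permutation p of each was 0.0286, the smallest that 4 against 4 arrays allow. These 6 were picked for the smallest p in this same comparison, so their separation gives no separate support. After quantile normalization 8 were higher and 6 lower, against 18.1% and 18.5% of all probe sets, the 6 being Pygm, Pdha1, Pdhb, Pdk2, Idh3b and Ogdh as against control. The second probe set of Pdk2 was called higher against Met-fed in the deposited scaling, by 1.89. This comparison shares its 4 L-NAME arrays with the comparison against control.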

How the data were processed

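Left ventricular RNA of pregnant rats was read on 13 arrays, 1 per sample. The deposited values are linear intensity values per probe set, which the authors computed with MAS5 (no version is given), and on every array their mean, less the 2% at both extremes, was 150. Each of 31099 probe sets has a value on every array, and 57 control probe sets were set aside. Gene symbols come from the platform annotation, with 20826 tested probe sets having 1 symbol, 436 several and 9780 none. Testing used log2 signals, unfiltered and with no offset. limma 3.58.1 in R 4.3.3 fitted 1 coefficient per group over all 13 arrays with a trended prior variance, and the Benjamini-Hochberg adjustment ran over 31042 probe sets. The fit was tested on simulated data. Groups follow the sample labels. The number of arrays limits the precision.

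The 34 genes, the wider list and the marker lists were chosen with earlier results of these data known. Genes given with tests were the 12 smallest p in each direction among those called, with their isoforms, for L-NAME against control, the 8 smallest p for methionine and the 6 smallest for L-NAME against Met-fed. Alternatives were quantile normalization, array median centring, centring on the brightest probe sets, offsets of 16 and 50, 2 filters on dim probe sets, the compared groups alone, no variance trend, 2 t-tests, a replicate block, the mean of all probe sets of a gene and each array left out. Same-numbered arrays did not deviate together (correlations of -0.21 to 0.24), so the numbers were not taken to pair them. Promoter windows are from RefSeq on GRCr8. Figures were drawn with matplotlib 3.10.9.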

Additional observations from a re-analysis of the deposited data

Results flagged for a closer look

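Among 102 sets of 4 or 5 arrays (34 genes in 3 groups), 5 held an array set apart from the rest by Dixon's test, about the number that chance gives at 1 in 20. Slc2a1 read 8.73 in control replicate 3, against 7.97 to 8.13 on the other control arrays. Gpi read 10.37 in L-NAME replicate 3, against 10.19 to 10.21. Pfkl read 6.07 in Met-fed replicate 2, against 5.72 to 5.77. Pgk1 read 10.58 in Met-fed replicate 1, against 10.98 to 11.02. Pygm read 10.73 in control replicate 1, against 10.94 to 10.995. All values are log2 signals.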

How the results depend on the processing

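Direction and side of the threshold were kept by 215 of 224 values recomputed for the 8 genes named against methionine, 536 of 588 for the 21 named in L-NAME against control and 155 of 162 for the 6 named in L-NAME against Met-fed.

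Under quantile normalization 9 genes were called higher and 7 lower in L-NAME against control, and 8 and 6 against Met-fed, and among the genes named with tests the change turned for Pfkm (0.009), Ldha (0.20), Ldhb (0.10), Pdk1 (0.15) and Idh2 (0.085). Of the other genes Suclg1 (0.18), Mdh2 (0.30), Eno1 (0.13) and Hk2 (-0.16) also turned. Under array median centring 1 was called higher and 25 lower against control, and 1 higher and 24 lower against Met-fed. Among the genes named with tests Tpi1 (-0.12) and Pgam2 (-0.24) turned against control, which follows from the same 0.43 being taken from every change. With the mean of all probe sets of a gene 9 were called higher against control and 10 against Met-fed. Among the genes named with tests, Pfkm (0.54), Pygm (1.19), Pdha1 (0.18) and Pdk2 (0.51) turned against control. Pdha1 (0.28) and Pygm (1.28) turned against Met-fed, and Hk1 (-0.31) in methionine against control.

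With the second brightest probe set, chosen after the data were seen, 10 were called higher against control and 10 against Met-fed. Among the genes named with tests in each comparison, Pfkm (2.32), Pygm (2.02), Pdha1 (1.16) and Pdk2 (1.93) turned against control. Pdha1 (1.13) and Pygm (1.84) turned against Met-fed. In methionine against control Pdha1 (0.027), Pygm (0.17), Hk1 (-0.85), Pgk1 (0.013), Pdk2 (0.042) and Cs (0.017) turned. With this and quantile normalization together, also chosen after the data were seen, 15 were called higher and 5 lower, and Pfkm (2.13), Ldha (0.20), Ldhb (0.10), Pygm (1.98), Pdha1 (1.08), Pdk2 (1.67) and Idh2 (0.085) turned. The cause of these changes was not tested. For the mean and the second brightest probe set no share over all genes is given. The counts called with them cannot be set beside a background.

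In methionine against control, genes at an unadjusted p under 0.05 numbered 3, and 1 without a variance trend, 1 by the methods' t-test, 1 to 10 with single arrays left out (10 without Met-fed replicate 2, 8 without replicate 3, 5 without control replicate 1 and 1 without Met-fed replicate 1) and 7 without Met-fed replicates 1 and 4, where Idh3b (0.001) and Cs (0.013) turned. After adjustment both t-tests called 0 of 34. Over all probe sets 0 to 1 was called with single arrays left out. In L-NAME against control Slc2a1 was not called by the methods' t-test (adjusted p = 0.0649) or the form for unequal variances (0.0624). In L-NAME against Met-fed the methods' t-test called 12 of the 34 genes, 2 of them higher, against 11070 of all 31042 probe sets. The form for unequal variances called 9, with 2 higher and 7 lower, against 9306 of all 31042 probe sets.

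With single arrays left out, 21 to 25 genes were called in L-NAME against control and 15 to 25 in L-NAME against Met-fed. The replicate numbers do not pair the arrays. With a replicate block, 1 probe set was called in methionine against control, and 23 of the 34 genes in L-NAME against control. For the L-NAME comparisons the shares of all probe sets called under these settings are not given. The counts of genes there cannot be set beside them.

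Limits of these data are the 4 or 5 arrays per group and probe sets that disagree within a gene. Probe sets near the lower end of the signal, such as that of Hk2, had the widest intervals.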
